A study of Mus musculus with 3 samples.

Results

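The genes described here are 7 members of the cytosolic DNA sensing pathway, out of 32285 genes counted: Cgas, Tmem173, Ddx41, Tbk1, Irf3, Trex1 and Samhd1. They were taken by their symbols as the core of the cGAS-STING pathway with a pair of its nucleases, and all 7 were found in the count matrices. The cells came from retinas of C57BL/6JRj mice in 3 age groups, young at 3 months, adult at 12 months and old at 23 months, for which no transgene, deletion or treatment is named. Retinal tissue went through a pair of digestions with a spin between them to collect vessel fragments, and cells carrying CD31, a surface protein of endothelial cells, were enriched with magnetic beads. Retinas of 2 mice were pooled into 1 droplet single-cell RNA library for each age, 3 libraries in all. No age has a replicate, so differences between ages below carry intervals for counting error only and no test.

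Cytosolic DNA sensing is the arm of innate immunity that detects DNA outside the nucleus. The enzyme cGAS binds double-stranded DNA and makes the messenger cGAMP. The adaptor STING, the product of Tmem173, binds it and recruits the kinase TBK1, which phosphorylates the transcription factor IRF3 and so switches on interferon and interferon-stimulated genes. DDX41 is a helicase proposed as a further DNA sensor upstream of STING. Nucleases hold the system back: TREX1 degrades cytosolic DNA, and SAMHD1 removes deoxynucleotides and acts on stalled replication forks. Endothelial cells and leukocytes are known sites of STING.

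Promoter sequence is a property that the choice of the genes did not use. The interferon response core, spelled GAAANNGAA, was searched on both strands of RefSeq promoters, from 250 bases before the start to 50 after it (GRCm38.p6). Overlapping matches were each counted. It occurred in 8.56% of 32851 promoters. None of the 7 promoters listed for 6 of the members held it, and Tmem173 was not searched. Of 6 output genes of the pathway with a listed promoter, 4 held it, namely Ifna4, Cxcl10, Isg15 and Ifit1. Promoters of a pair of members and a pair of output genes are shown with matched bases in capitals to show a promoter without and with the core. A match is a string of letters and not a shown binding site. The Cgas promoter lies at chr9:78443188-78443487 and that of Samhd1 at chr2:157135047-157135346, both on the minus strand. That of Isg15 lies at chr4:156200769-156201068 on the minus strand and that of Ifit1 at chr19:34640639-34640938 on the plus strand.
Cgas: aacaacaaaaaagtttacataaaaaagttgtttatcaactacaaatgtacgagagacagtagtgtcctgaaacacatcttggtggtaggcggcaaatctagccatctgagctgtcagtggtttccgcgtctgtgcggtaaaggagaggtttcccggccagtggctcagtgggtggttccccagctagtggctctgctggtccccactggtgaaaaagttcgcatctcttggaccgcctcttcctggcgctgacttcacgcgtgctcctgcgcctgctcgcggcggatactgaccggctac
Samhd1: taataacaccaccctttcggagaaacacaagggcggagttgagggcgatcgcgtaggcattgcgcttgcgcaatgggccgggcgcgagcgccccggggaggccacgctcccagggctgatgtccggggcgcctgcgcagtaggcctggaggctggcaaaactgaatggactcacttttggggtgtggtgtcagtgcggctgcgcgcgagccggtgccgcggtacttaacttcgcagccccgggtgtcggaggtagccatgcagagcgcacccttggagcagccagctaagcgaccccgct
Isg15: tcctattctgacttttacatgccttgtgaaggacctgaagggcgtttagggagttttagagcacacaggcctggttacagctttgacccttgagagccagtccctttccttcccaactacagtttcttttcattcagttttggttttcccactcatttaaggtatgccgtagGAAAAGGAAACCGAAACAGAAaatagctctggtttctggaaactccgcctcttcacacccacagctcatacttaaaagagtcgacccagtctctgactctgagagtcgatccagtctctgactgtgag
Ifit1: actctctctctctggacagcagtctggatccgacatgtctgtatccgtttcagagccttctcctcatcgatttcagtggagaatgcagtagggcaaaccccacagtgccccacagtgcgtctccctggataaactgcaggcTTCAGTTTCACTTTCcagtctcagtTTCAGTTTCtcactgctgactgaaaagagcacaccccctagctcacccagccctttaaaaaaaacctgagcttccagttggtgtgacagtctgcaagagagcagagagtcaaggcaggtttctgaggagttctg
Isg15 and Ifit1 each held 3 matches, and Cgas and Samhd1 held 0.

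The libraries held 2491, 3243 and 2751 barcodes and 16577026, 19977238 and 17021820 unique molecular identifiers (UMIs, the tags that count captured transcripts) in the young, adult and old retina. After limits on gene number and mitochondrial share and after doublet removal, 1705 young, 1957 adult and 1701 old cells were kept, with a median of 6353, 5964 and 6296 UMIs. Cells were clustered without the 7 genes or other genes of the pathway, and clusters were named from fixed markers. The 7 classes that held 30 or more cells at every age were compared: endothelial-like (438 young, 423 adult and 403 old cells), pericyte-like, smooth muscle-like, Müller glia-like, rod-like, cone-like and bipolar-like cells. In 6 of the classes every fixed marker was highest in its own class, and in the endothelial class 6 of 7 were. Droplets with both endothelial and pericyte markers (311, 253 and 226) were kept apart. The young and adult libraries shared 1 cell barcode and the adult and old libraries 3, of which 2 passed the limits. Levels are given as CPM, the UMIs of a gene scaled to the UMI total of its class in that library (259 Samhd1 UMIs among 3235508 in young endothelial cells are 80.0 CPM), with exact Poisson intervals. They are compared between classes and ages for 1 gene at a time, not between genes.

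The first question was which of the genes can be measured at all. Samhd1 had 2833 UMIs over the 5363 cells, Irf3 1500, Tbk1 1170 and Ddx41 1063. Tmem173 had 229 and Cgas 157. Trex1 had 2. A gene was compared between ages in a class only where the pair of libraries held at least 20 of its UMIs, and was otherwise called too sparse. Samhd1 and Ddx41 met this for old against young in all 7 classes and Tbk1 and Irf3 in 6, smooth muscle being too sparse. Cgas and Tmem173 met it in the endothelial class alone. Trex1 met it in none. In all, 28 of 49 pairs of gene and class could be compared.

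Trex1, the exonuclease, cannot be judged from these counts. It had 1 UMI in young and 1 in adult endothelial cells and 0 elsewhere in the named classes. The 0 in old endothelial cells still allows up to 0.832 CPM. Its gene lies on chromosome 9 from 109057933 to 109059734 (GRCm38, minus strand), and 100% of its 1147 exonic bases are also exon of Atrip on the same strand. Atrip, which codes for a partner of the ATR kinase, had 631 UMIs in the same cells. Reads that fit exons of both genes would be assigned to neither under the usual counting rule, and the rule used for these libraries is not given in the sources used here. None of the other 6 genes shares exonic bases with another gene on its own strand. Ddx41 and Irf3 share 17.4% and 2.56% of theirs with Gm46416 and Bcl2l12 on the opposite strand.

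Among the 7 classes compared, Cgas, the sensor (chromosome 9, 78430526 to 78443237), was found mainly in endothelial cells and pericytes and was almost absent from neurons. Endothelial cells held 17 young, 14 adult and 34 old UMIs, or 5.25, 4.18 and 9.43 CPM. Pericytes held 3, 2 and 1, or 4.29, 3.55 and 2.01 CPM. Smooth muscle, also vascular, held 1, 0 and 0 among 964955 UMIs. Rods and bipolar cells held 0 in every library, cones held 1 and Müller glia 2 over the 3 libraries. The 1528 rods, cones and bipolar cells together had 1 Cgas UMI among 7422792, against 65 among 10184518 in endothelial cells. The ratio of endothelial to neuronal CPM was 47.4, with an interval of 8.21 to 1900 that reflects the single neuronal UMI. At 3 counts over the libraries, the limit that a count of 0 allows, bipolar cells would stand 7.81-fold and rods 4.45-fold below endothelial cells. These folds leave out the counting error of the endothelial level. The droplets with endothelial and pericyte markers stood at 6.48, 4.37 and 4.90 CPM. In the endothelial class 3.65, 2.60 and 6.70% of cells had a Cgas UMI, at median depths of 5679, 6016 and 7496 UMIs. Of 726 rods 0 had one, which allows a share with a UMI of up to 0.413% at median depths of 2283, 2423 and 2152.5 UMIs and does not bound the share of rods that express the gene.

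Tmem173, the STING gene (chromosome 18, 35733679 to 35740554), was highest, among the 7 classes compared, in pericytes and endothelial cells. Endothelial cells had 20, 16 and 18 UMIs, or 6.18, 4.78 and 4.99 CPM in the young, adult and old library. Pericytes had 7, 4 and 3 UMIs, or 10.0, 7.11 and 6.02 CPM. The library ranges of these classes overlapped, and both lay above those of bipolar cells, Müller glia and rods. The next highest class, bipolar cells, reached 2.81 CPM in its highest library. Smooth muscle and cones had 0 UMIs. At 3 counts they would stand 1.71 and 2.93-fold below the endothelial level, whose own counting error is left out. Rods, cones and bipolar cells together had 7 UMIs, and the endothelial to neuronal ratio was 5.62 (2.55 to 14.6). Both Cgas and Tmem173 were under the count minimum of the class model described next and were left out of its tests. When edgeR was fitted without that minimum, Cgas had an adjusted p of 2.38e-07 in bipolar cells, 2.79e-06 in Müller glia, 0.000191 in rods and 0.0029 in cones against endothelial cells, each lower, and 0.133 in smooth muscle and 0.408 in pericytes. Tmem173 had an adjusted p of 0.00594 in bipolar cells, 0.000497 in Müller glia, 0.00535 in rods, 0.000568 in cones and 0.0319 in smooth muscle, each lower, and 0.814 in pericytes. The fitted folds of genes at 0 UMIs depend on the prior count and are not given.

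Samhd1, the deoxynucleotide hydrolase (chromosome 2, 157097533 to 157135265), had the widest range between classes of the members that could be tested. It stood at 80.0, 88.2 and 97.1 CPM in young, adult and old endothelial cells. Pericytes had 61.5, 60.4 and 42.1 CPM and smooth muscle 42.3, 57.0 and 52.9. Müller glia had 19.8, 18.5 and 24.3. All 3 endothelial libraries lay above all pericyte and smooth muscle libraries, and those lay above every Müller glia, rod, cone and bipolar library. Pericytes and smooth muscle overlapped each other, as did the remaining classes in the order Müller glia, cones, rods and bipolar cells. The highest class mean, 88.5 ± 8.54 CPM (SD, n = 3 libraries), was 5.61 times the lowest, 15.8 ± 3.94 in bipolar cells.

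**Figure D1:**
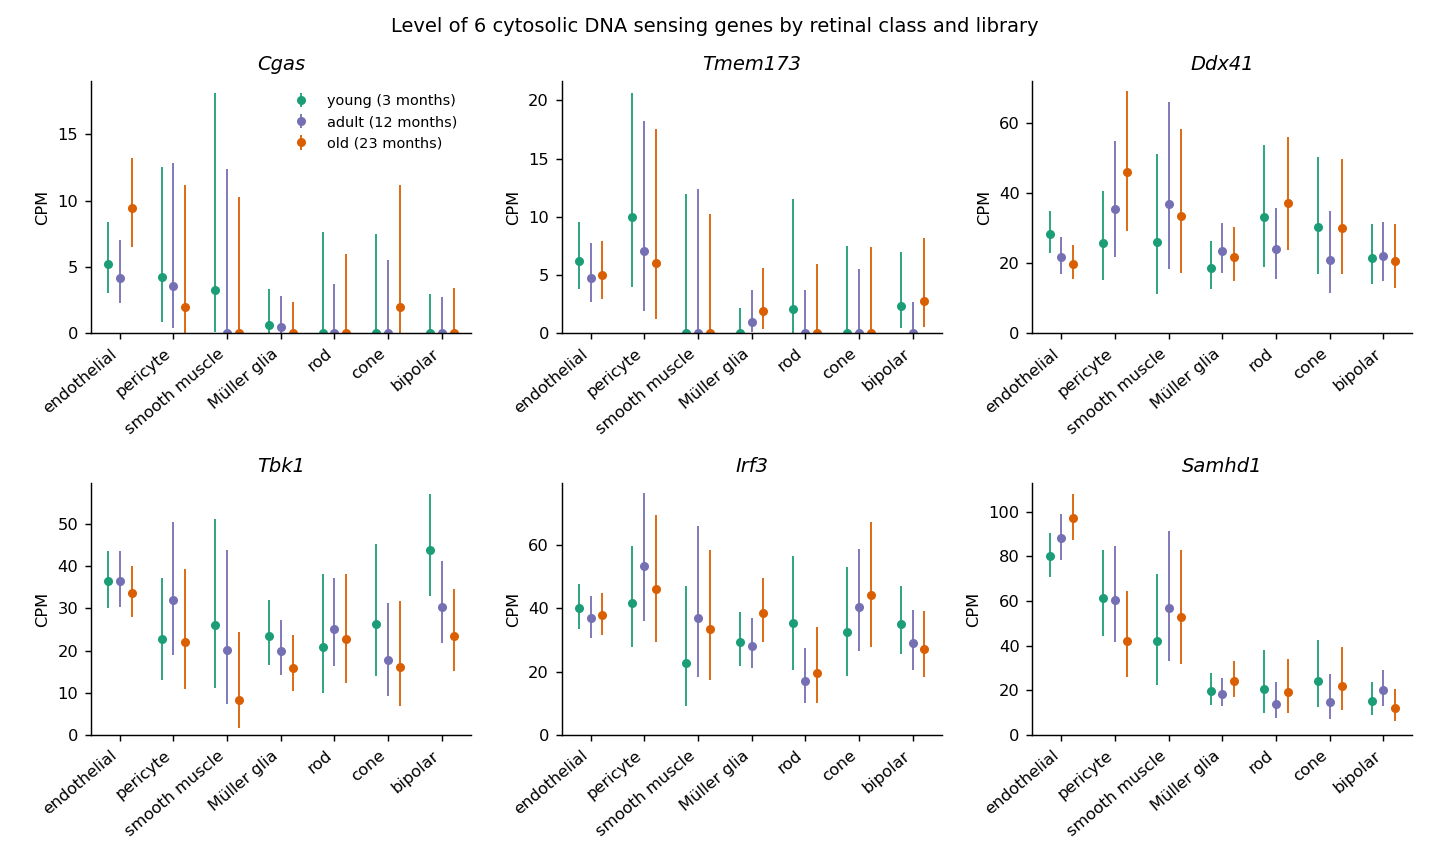
CPM of 6 members (y axis, linear) in each of 7 retinal classes (x axis) in the young, adult and old library. Points are class sums of 1 library and bars are exact 95% Poisson intervals. Samhd1 sits at 80.0 to 97.1 CPM in endothelial cells and at 12.2 to 24.4 CPM in Müller glia and neurons, while Cgas and Tmem173 stay at or under 3.25 CPM outside endothelial cells and pericytes, where single points rest on 0 to 3 UMIs.

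A Samhd1 UMI was found in 38.8, 39.5 and 46.2% of young, adult and old endothelial cells. In rods, where the level was low, the share was 5.39, 4.05 and 5.04%, at the lower depth given above. With each cell thinned to 2000 UMIs the endothelial shares were 14.8, 13.6 and 13.8% and the rod shares 2.86, 1.85 and 3.50%. Cells under that depth were dropped, 11, 25 and 5 of the endothelial class and 62, 105 and 95 of the rod class. At equal depth the old endothelial share lay between the young and the adult one.

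Tbk1, the kinase (chromosome 10, 121546455 to 121586787), was present in every class. Its endothelial level was 36.5, 36.5 and 33.6 CPM, a mean of 35.5 ± 1.67 (SD, n = 3 libraries). Bipolar cells had 43.8, 30.4 and 23.4 CPM. The other classes had means between 18.2 CPM in smooth muscle and 25.6 in pericytes. Every neighbour in the order of class means overlapped the next.

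Irf3, the transcription factor (chromosome 7, 44997648 to 45002848), had 40.2, 36.8 and 37.7 CPM in endothelial cells. Among the 7 classes compared pericytes had the highest mean, from 41.5, 53.3 and 46.1 CPM, and rods had the lowest mean, from 35.3, 17.1 and 19.5, although young rods lay above young smooth muscle, Müller glia, cones and bipolar cells. Ddx41, the helicase (chromosome 13, 55530410 to 55536658), had 28.4, 21.8 and 19.98 CPM in endothelial cells and 25.7, 35.5 and 46.1 in pericytes. Class means of Ddx41 spanned a factor of 1.68 and those of Irf3 and Tbk1 a factor of 1.96, and neighbouring classes overlapped for all 3 genes.

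Class differences were tested with edgeR on UMIs summed by class and library, with the library as a term, in 1 fit of 21 profiles. The 3 libraries served as replicates of a class, although they differ in age. Of 11065 genes tested 4 were members: Samhd1, Tbk1, Irf3 and Ddx41. No member was called higher in any class than in endothelial cells in this fit. Of all genes called, the share that was higher ran from 42.6% in smooth muscle to 50.6% in Müller glia. Against pericytes the endothelial class differed in 2 of 4 members, against a background of 41.9% of all genes called. In smooth muscle 2 of 4 were lower than in endothelial cells (background 38.2%), in Müller glia 2 of 4 (69.2%), in cones 2 of 4 (66.6%), in rods 3 of 4 (64.9%) and in bipolar cells 3 of 4 (72.5%). These shares are near the background, so the number of calls is not particular to the genes.

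Samhd1 was lower than in endothelial cells in all 6 contrasts. The log2 difference was -0.83 ± 0.17 (SE) in pericytes (adjusted p = 8.01e-05) and -0.85 ± 0.22 in smooth muscle (adjusted p = 0.00135). It was -2.15 ± 0.16 in Müller glia (adjusted p = 7.49e-16) and -2.75 ± 0.18 in bipolar cells (adjusted p = 1.45e-17), with rods at -2.42 and cones at -2.39 between them. When each cell's class was set by its own markers, which left 17, 13 and 16 smooth muscle cells, the smooth muscle difference was -0.58 (adjusted p = 0.194). The 7 endothelial markers stood in pericytes at a median of 4.33 to 7.13% of their endothelial level over the libraries, and in the other classes at a median under 1%. With that share subtracted Samhd1 passed the test in all 6 contrasts, at -0.87 in pericytes (adjusted p = 0.000231).

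Tbk1 was also lower in every class in this fit. In the young library alone bipolar cells stood above endothelial cells, at 43.8 against 36.5 CPM. The log2 difference was -0.91 ± 0.18 in Müller glia (adjusted p = 2.34e-05) and -1.08 ± 0.25 in cones (adjusted p = 0.000233). It was -0.66 ± 0.23 in pericytes (adjusted p = 0.0189), -1.05 ± 0.33 in smooth muscle (adjusted p = 0.00886), -0.67 ± 0.23 in rods (adjusted p = 0.00931) and -0.43 ± 0.18 in bipolar cells (adjusted p = 0.0268). The calls in Müller glia and cones held under each of the 10 alternatives tried. With classes set by each cell's own markers the other calls were lost, at -0.09 in bipolar cells (adjusted p = 0.641), -0.30 in pericytes (0.363), -0.50 in smooth muscle (0.499) and -0.39 in rods (0.0973). The bipolar call was also lost without the adult library (adjusted p = 0.163) and without the old one (0.208), where its log2 difference was -0.38 and -0.29. The pericyte call was also lost without the young library (-0.56, adjusted p = 0.159) and without the old one (-0.60, 0.0877), and the smooth muscle call without the old one (-0.72, 0.168). With DESeq2 the adjusted p was 0.186 in bipolar cells, 0.101 in pericytes and 0.0542 in smooth muscle, and with RLE size factors it was 0.114, 0.0544 and 0.0287. The bipolar call was lost too without the library term (0.0531) and without the low-count filter (0.0504). In the latter fit the log2 difference was -0.44, against -0.43 in the reported one.

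Irf3 was lower in rods (log2 -0.84 ± 0.23, adjusted p = 0.00158) and in bipolar cells (-0.62 ± 0.18, adjusted p = 0.00223). Without the adult library the rod value was -0.67 (adjusted p = 0.0662). Without the old library Irf3 was also called lower in Müller glia (-0.47, adjusted p = 0.036). Irf3 did not pass in pericytes, where its difference of 0.12 had an interval of -0.29 to 0.53. Ddx41 passed in no contrast. Its intervals ran from -0.06 to 0.87 in pericytes, from -0.15 to 0.78 in rods and from -0.56 to 0.21 in Müller glia. Its mean CPM was higher in pericytes, smooth muscle, rods and cones than in endothelial cells. Without the young library Ddx41 was called higher in pericytes (0.77, adjusted p = 0.0354).

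The values also depend on the scaling. With totals in place of TMM factors the median log2 difference of all genes moved by 0.287 in bipolar cells, by 0.21 in cones and by 0.136 in pericytes. The share of called genes that were higher moved from 46.1 to 56.9% in bipolar cells and from 45.1 to 56.8% in pericytes. Under that scaling the bipolar difference of Irf3 was -0.32 (adjusted p = 0.118) and that of Tbk1 -0.13 (adjusted p = 0.525), the pericyte difference of Tbk1 was -0.50 (adjusted p = 0.0872), and Ddx41 was called higher in pericytes (0.58, adjusted p = 0.0473). The Samhd1 values kept their sign and call.

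**Figure D2:**
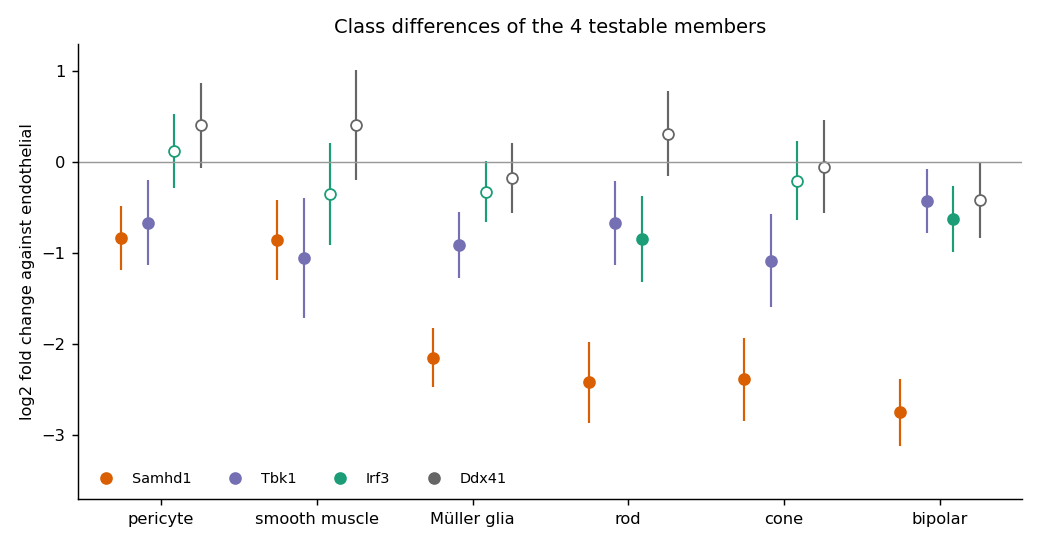
Log2 fold change (y axis) of each class against endothelial cells (x axis, 6 classes) for the 4 members that passed the count filter, from edgeR. Bars are 95% intervals, and filled points have an adjusted p under 0.05. Samhd1 is below 0 in every class, from -0.83 in pericytes to -2.75 in bipolar cells, and Ddx41 has an open point in every class.

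A list of other genes of the pathway was tested in the same fit, 48 of which passed the count filter. In pericytes 15 were lower and 4 higher than in endothelial cells, in smooth muscle 16 and 3, in Müller glia 24 and 9, in rods 27 and 6, in cones 25 and 7 and in bipolar cells 27 and 9. The calls were 19 of 48 in pericytes and 19 of 48 in smooth muscle, where 41.9 and 38.2% of all genes were called. They were 33, 33, 32 and 36 of 48 in Müller glia, rods, cones and bipolar cells, where 69.2, 64.9, 66.6 and 72.5% of all genes were. Over all genes 2089 were higher and 2544 lower in pericytes, 1802 and 2425 in smooth muscle and 3874 and 3782 in Müller glia. In rods 3106 were higher and 4073 lower, in cones 3303 and 4063 and in bipolar cells 3695 and 4325. The list's median log2 difference ran from -0.15 in pericytes to -0.75 in rods, where the medians of all genes were -0.07 and -0.16.

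Irf7, the interferon-induced relative of Irf3, was among the 3 genes with the largest falls in pericytes, smooth muscle and Müller glia. Its endothelial level was 128, 131 and 360 CPM, and its level in Müller glia was 8.41, 13.9 and 16.0. The log2 difference in Müller glia was -3.98 ± 0.18 (adjusted p = 1.69e-23). Rhbdf2, whose product iRhom2 carries STING to its signalling site, stood at 33.4, 33.8 and 28.0 CPM in endothelial cells and had 1, 0 and 2 UMIs in pericytes. Mndal and Ifi203, members of the interferon-inducible p200 family of DNA-binding proteins, were among the genes with the largest falls outside the vessel wall. Mndal had 587, 594 and 752 UMIs in endothelial cells and 0, 1 and 0 in Müller glia. Ifi203 had 696, 881 and 943 UMIs in endothelial cells and 0 in cones. Reads of this multigene family may be shared between copies. The outputs Isg15 and Ifit1 had 1210, 1390 and 2959 and 564, 646 and 1250 endothelial UMIs, while Isg15 had 0 in cones and Ifit1 0 in rods. Trim56, a ubiquitin ligase that acts on cGAS and STING, had 236, 244 and 279 endothelial UMIs and 0 in cones, and Tbkbp1, an adaptor of TBK1, 105, 101 and 129 and 0 in rods.

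Fewer genes ran the other way. Rnf5, a ubiquitin ligase that marks STING for degradation, was among the 3 genes with the largest rises in all 6 contrasts. It stood at 16.4, 19.1 and 21.9 CPM in endothelial cells, 61.5, 55.1 and 64.2 in pericytes and 93.1, 109 and 102 in Müller glia. The log2 difference was 1.49 ± 0.19 in pericytes (adjusted p = 6.38e-09) and 2.34 ± 0.13 in Müller glia (adjusted p = 4.73e-20). Of its exonic bases 24.7% lie opposite Gm20463. Slc19a1, a folate carrier that also imports cGAMP, had 189, 148 and 152 CPM in pericytes and 97.5, 131 and 78.0 in smooth muscle, against 2.16, 3.89 and 1.94 in endothelial cells. Its log2 difference was 5.72 ± 0.23 in pericytes (adjusted p = 1.75e-24). Stim1, a calcium sensor that holds STING at the endoplasmic reticulum, was 0.90 ± 0.17 higher in pericytes (adjusted p = 1.55e-05) and 1.58 ± 0.18 higher in smooth muscle (adjusted p = 9.76e-10). In neurons and glia the largest rises besides Rnf5 and Slc19a1 were Hmgb2 (2.15) and Rnaseh2b (2.06) in rods, Xrcc5 (1.58) in cones, Trim32 (1.47) and Pld3 (1.28) in bipolar cells and Ttll4 (1.95) in Müller glia. Hmgb2, a DNA-bending chromatin protein, had 756, 815 and 562 CPM in rods and 150, 155 and 147 in endothelial cells.

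The next question was whether the genes differed with age, first in endothelial cells. A ratio of at least 1.5 either way was taken as past the limit. Of 6 members compared in endothelial cells between old and young, 1 was past it, where 12.9% of all 10630 genes compared were, and 15.4% of those with 20 to 500 UMIs. The member was Cgas. Its ratio of old to young was 1.80, with an interval of 0.98 to 3.43. It was 0.80 (0.36 to 1.72) for adult over young, where no member was past the limit and 8.83% of genes were. For old over adult it was 2.25 (1.18 to 4.55), and 1 member and 10.6% of genes were past the limit.

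The Cgas value depended on which cells were counted. With the droplets of endothelial and pericyte markers added it was 1.21, with classes set by each cell's own markers 1.27, and with cells thinned to 2000 UMIs 2.41 (0.674 to 10.7) from 9 and 4 UMIs, under the minimum for a comparison. Within those mixed droplets alone the ratio was 0.76 (0.39 to 1.42). With 34 and 17 UMIs, only a ratio of at least 1.96 or at most 0.533 would have had an interval that leaves out 1.

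Samhd1 had a ratio of 1.21 (1.03 to 1.43) for old over young, inside the limit and with an interval that left out 1, 1.10 (0.93 to 1.31) for adult over young and 1.10 (0.94 to 1.29) for old over adult. Its old over young ratio turned to 0.915 (0.633 to 1.32) with cells thinned to 2000 UMIs, and in the mixed droplets it was 0.96 (0.82 to 1.11). Ddx41 had 92, 73 and 72 UMIs and stood at 0.70 (0.51 to 0.97) in old over young cells, inside the limit. With cells thinned it was 0.60 (0.289 to 1.201) from 14 and 25 UMIs, past the limit. The old endothelial cells were deeper than the young, at a median of 7496 against 5679 UMIs.

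Tbk1, Irf3 and Tmem173 had intervals that held 1. The ratios were 0.92 (0.71 to 1.197) for Tbk1, 0.94 (0.73 to 1.204) for Irf3 and 0.81 (0.40 to 1.61) for Tmem173. At their counts, intervals would have left out 1 from a ratio of 1.31 for Tbk1, 1.29 for Irf3 and 2.20 for Tmem173 upward. Without the endothelial cells that carried 2 or more markers of another class, which left 219 young and 147 old cells, Tbk1 stood at 1.32 (0.84 to 2.09).

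Markers of other cell types moved with age in the endothelial class. The 5 erythroid markers summed to 558.5, 200.6 and 1407 CPM in the young, adult and old cells, and the 6 pericyte markers to 1946, 1938 and 1189. The 7 rod markers summed to 61.5, 107 and 135. The 5 B cell markers summed to 4.33, 11.7 and 6.105 CPM and the 7 microglial markers, of which 1 was at 0, to 1.85, 2.99 and 1.39. The part of these markers in the age ratios was not tested. The make-up of the class also moved, as its arterial cluster held 43 young, 55 adult and 78 old cells. Leaving that cluster out was among the alternatives tried.

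In the other classes 4 further pairs of gene and class were past the limit, and 3 of these had intervals that held 1. Ddx41 was higher in old pericytes, at 1.79 (0.92 to 3.52) from 23 and 18 UMIs, 1 of 4 members compared, where 22.2% of genes were past the limit. The 5 erythroid markers summed to 20.03, 40.9 and 383 CPM in young, adult and old pericytes and the 7 endothelial markers to 652, 633 and 868, and their part in the result was not tested. Irf3 was lower in old rods, at 0.55 (0.24 to 1.23) from 12 and 17 UMIs, 1 of 4, against 21.8% of genes. Adult over young rods stood at 0.48 (0.23 to 1.01). The 7 endothelial markers summed to 41.5, 34.2 and 133 CPM in young, adult and old rods. The 5 erythroid markers summed to 18.7, 45.3 and 63.4 CPM there, and the part of both in the result was not tested. Tbk1 was lower in old cones, at 0.61 (0.22 to 1.58) from 8 and 13 UMIs, 1 of 4, against 20% of genes. The young cones also held 15057 CPM of erythroid markers, against 31.3 and 26.1 in adult and old cones, and the part of these in the result was not tested.

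Tbk1 in bipolar cells was the pair whose interval left out 1. It had 55, 41 and 25 UMIs in the young, adult and old library, or 43.8, 30.4 and 23.4 CPM, and old over young stood at 0.54 (0.32 to 0.87). The adult lay between, at 0.69 (0.45 to 1.06) of the young level. The 5 erythroid markers summed to 7.96, 25.2 and 19.7 CPM in young, adult and old bipolar cells and the 6 pericyte markers to 27.9, 141 and 43.1, and their part in the result was not tested. Tbk1 was 1 of 4 members past the limit in bipolar cells, where 15.8% of genes were. In Müller glia 0 of 4 members were past it, with Tbk1 at 0.68 (0.40 to 1.16), and 15.8% of genes. In smooth muscle 0 of 2 were, and 24.9% of genes. Outside the endothelial class the other age steps gave 3 more ratios past the limit besides that of Irf3 in rods, and their intervals held 1: Ddx41 in rods at 1.55 (0.83 to 2.86) and Samhd1 in bipolar cells at 0.61 (0.29 to 1.22) for old over adult, and Samhd1 in cones at 0.61 (0.24 to 1.54) for adult over young. The share of all genes past the limit was not worked out for those steps outside the endothelial class. With 28 pairs compared between old and young and 5 past the limit, the members' share was close to that of all genes in the same classes.

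**Figure D3:**
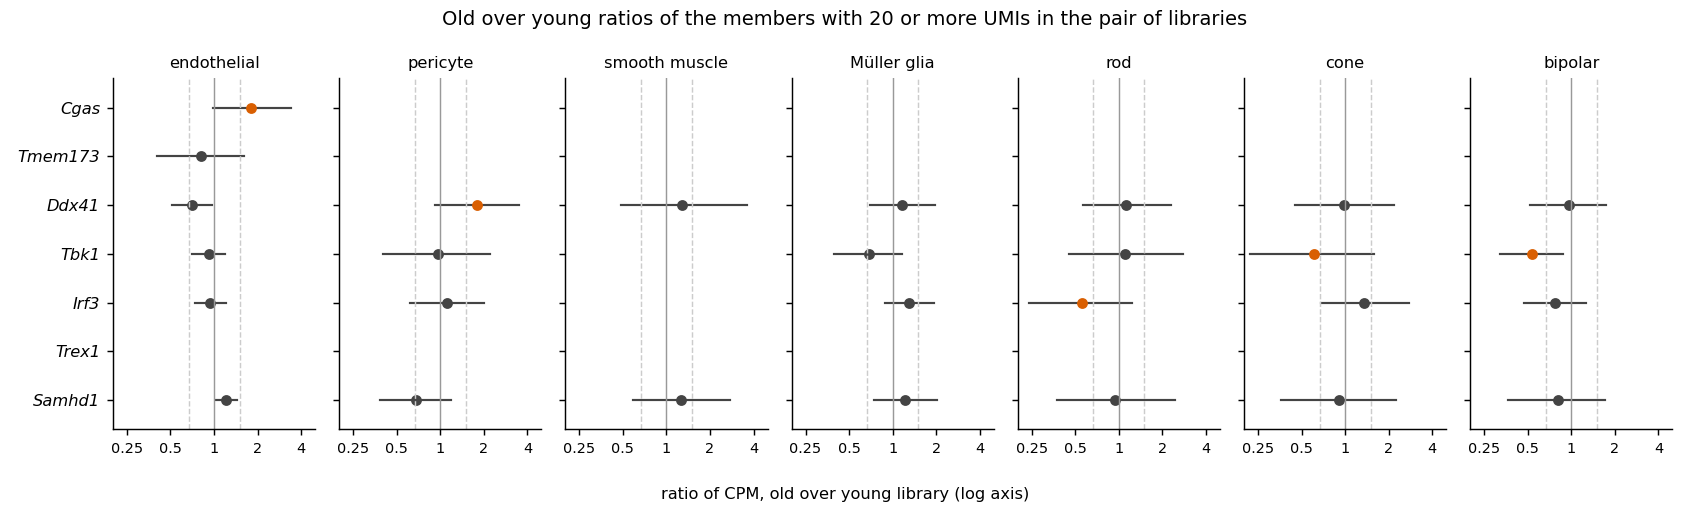
Ratio of CPM in the old over the young library (x axis, log scale) for each member (y axis) in each of 7 classes (panels). Bars are exact 95% intervals for counting error, dashed lines mark 1.5-fold, orange points are past it, and genes with under 20 UMIs have no point. Of the 5 orange points, Tbk1 in bipolar cells at 0.54 is the one whose bar leaves out 1.

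Other genes of the pathway were compared in endothelial cells to place the members, 53 of 68 having enough UMIs. Of these 8 were higher and 3 lower past the limit in old against young cells, 11 of 53 where 12.9% of all genes were (15.4% of those with 20 to 500 UMIs), and the median log2 ratio was 0.09, with 0.02 for all genes. Cxcl10, an output and a chemokine, had the largest ratio. It had 7.73, 5.68 and 219 CPM and stood at 28.4 (19.1 to 44.1). Isg15 and Ifit1, classical interferon-stimulated genes, had ratios of 2.20 (2.05 to 2.35) and 1.99 (1.80 to 2.20).

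Among factors and sensors, 1 factor and 4 sensors were past the limit. Irf7 had a ratio of 2.82 (2.52 to 3.15). Zbp1, a sensor of Z-form nucleic acid, had 11.7, 12.6 and 31.9 CPM and a ratio of 2.72 (1.87 to 4.03), and Ifi204, a p200 family DNA sensor, 5.87, 6.28 and 16.4 CPM and 2.79 (1.64 to 4.95). Mre11a and Xrcc6, DNA repair proteins that also bind cytosolic DNA, had 1.62 (0.93 to 2.91) and 1.65 (0.92 to 3.06). Mndal and Ifi203 were inside the limit, at 1.15 (1.03 to 1.28) and 1.22 (1.10 to 1.34). Lower were Lrrc8d, a subunit of LRRC8 anion channels, at 0.55 (0.35 to 0.84), and the kinase Ulk1, a negative regulator of STING, at 0.64 (0.48 to 0.86). Ttll4, an enzyme that modifies cGAS, was also lower, at 0.54 (0.24 to 1.16). Of the members, Tbk1, Irf3, Tmem173 and Samhd1 lay between 0.81 and 1.21 and Ddx41 at 0.70, inside the limit, and Cgas at 1.80, past it.

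**Figure D4:**
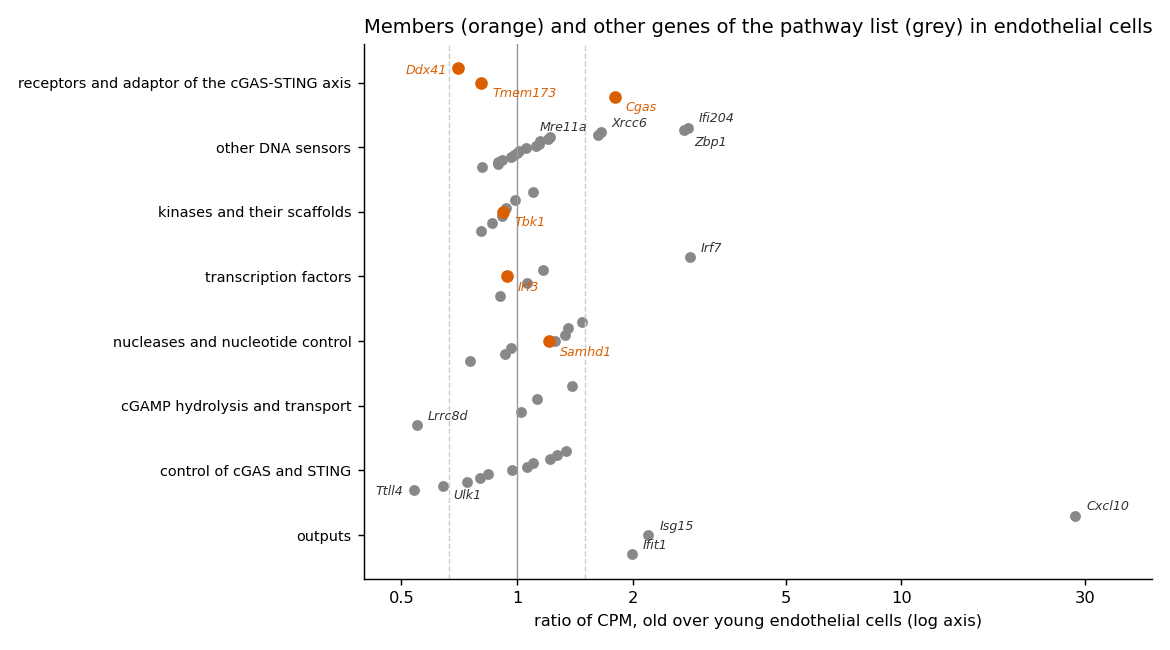
Ratio of CPM in old over young endothelial cells (x axis, log scale) for 6 members (orange) and 53 other genes of the pathway list (grey), grouped by role (y axis). Dashed lines mark 1.5-fold, and genes past it are named. The outputs Cxcl10, Isg15 and Ifit1 lie at 28.4, 2.20 and 1.99, and 5 of the 6 members lie between 0.70 and 1.21.

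Genes with the most similar profile over the 21 class and library profiles were sought for members with at least 200 UMIs in them, by Pearson's r of log2(CPM + 10). For Samhd1 they were Anxa3 (0.97), Fmnl3 (0.96) and Smad7 (0.96). The best values for Ddx41, Tbk1 and Irf3 were 0.78 with Arhgap10, 0.77 with Arhgap20 and 0.77 with Mpg. The profiles share libraries and depth, so these are descriptions.

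Leukocytes in the suspension stood above the vessel wall in Samhd1 and Tmem173. B cell-like cells (10 young, 76 adult and 57 old) had 512, 267 and 357 CPM of Samhd1, and a cluster with microglial and with T and NK cell markers (9, 30 and 14 cells) had 170, 351 and 394. These values lay above the endothelial range in every library. The B cell to endothelial ratio was 6.39 (3.98 to 9.80), 3.03 (2.34 to 3.88) and 3.68 (2.88 to 4.66) in the young, adult and old library. Tmem173 in B cells stood at 66.7, 52.1 and 36.5 CPM from 3, 16 and 9 UMIs, and the B cell to endothelial ratio over the libraries was 8.83 (5.38 to 14.2). Cgas had 0 UMIs in the 143 B cells, which allows up to 5.02 CPM, and 0, 4 and 2 UMIs in the cluster with microglial and T and NK markers. Over the libraries that cluster stood at 13.6 CPM of Cgas (4.99 to 29.6), against 6.38 (4.93 to 8.13) in endothelial cells. These clusters were too small in the young library for the class model.

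The leukocytes weigh on values taken over the whole suspension. They held 0.85, 3.70 and 2.73% of all UMIs of the young, adult and old library but 3.98, 17.3 and 13.8% of the Samhd1 UMIs, and 6.85, 34.1 and 19.1% of those of Tmem173. Samhd1 stood at 64.8, 65.2 and 72.9 CPM over all kept cells and at 62.7, 56.0 and 64.6 without them. In such sums a change in the number of cells of a type cannot be told apart from a change in RNA per cell.

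**Figure D5:**
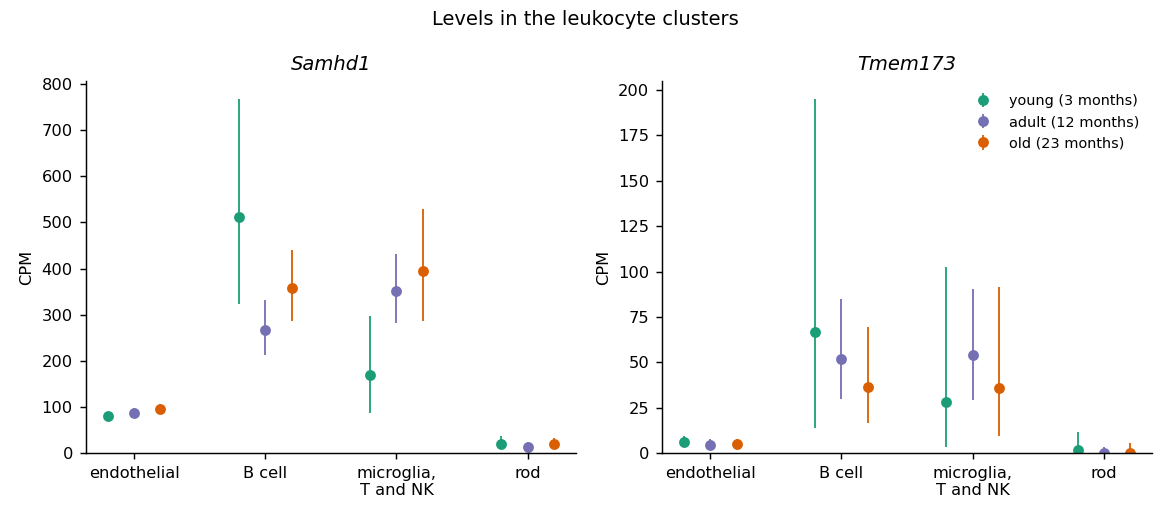
CPM (y axis, linear) of Samhd1 (left) and Tmem173 (right) in endothelial cells, B cells, the cluster with microglial and T and NK cell markers, and rods (x axis) in each library. Bars are exact 95% Poisson intervals. Samhd1 lies at 170 to 512 CPM in the leukocyte clusters and at 80.0 to 97.1 in endothelial cells.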

How the data were processed

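The 3 10x single-cell RNA libraries (3' chemistry) were analysed, 1 each from young, adult and old retina. The deposited values were unnormalised UMI counts for each gene in each barcode, which the authors made with Cell Ranger 6.1.2 on mm10 according to the submitters' processing notes. The counting annotation is not given in the sources used here.

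Cells with 500 to 6000 genes and 1 to 20% mitochondrial UMIs were kept, and Scrublet calls (scanpy 1.11.5; 8, 17 and 12 cells) were removed. Cells were integrated and clustered in Seurat 5.3.0 (R 4.3.3; 2000 features, 30 components, resolution 0.5). A class name needed 3 markers, each detected in 20% of cells and at 25% of the highest cluster; clusters with 50% of the markers of more than 1 class were called mixed. Class sums held 3235508 young, 3345392 adult and 3603618 old endothelial UMIs, and the smallest class sum was 298259 UMIs in adult smooth muscle. Ratios carry exact conditional and shares exact Clopper-Pearson 95% intervals (scipy 1.17.1), for counting error only. A count of 0 is read as under 3 counts. Classes were compared with edgeR 4.0.16 (TMM, quasi-likelihood, Benjamini-Hochberg over all genes tested), with DESeq2 1.42.0, other scalings, filters, cell selections and left-out libraries as alternatives. The SE of a log2 difference in edgeR was taken as its size over the square root of the quasi-likelihood F. Its 95% interval used that SE and a t quantile. Scripts were tested on simulated data. Positions are from GENCODE on GRCm38; 32158 of 32285 identifiers matched.

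The 7 genes, the pathway list and the tests were chosen with earlier results of these data known. The other genes named were those of the pathway list past the limit in old against young endothelial cells, at most 10 each way, those with the largest class differences, at most 3 each way and contrast, and the 3 with the most similar profile.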

Additional observations from a re-analysis of the deposited data

Results flagged for a closer look

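Signals outside the classes compared were listed where a member's interval over the 3 libraries lay above its endothelial interval. Samhd1 stood at 323 CPM (279 to 372) in B cell-like cells and at 333 CPM (281 to 392) in the cluster with microglial and T and NK cell markers, against 88.8 (83.1 to 94.7) in endothelial cells. Tmem173 stood at 46.8 CPM (31.1 to 67.7) in the B cells and at 45.3 CPM (27.7 to 70.0) in that cluster, against 5.30 (3.98 to 6.92). Ddx41 stood at 76.9 CPM (56.3 to 103) in the B cells and at 51.4 CPM (30.5 to 81.2) in amacrine-like cells, against 23.3 (20.4 to 26.4). The Ddx41 value in amacrine cells rests on 18 UMIs.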

How the results depend on the processing

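Of 72 values of the 6 endothelial age ratios under other settings, 70 stayed within the counting interval of the reported value. These include Irf3, which ran from 0.76 to 1.12 and crossed 1. They also include Ddx41, which passed the 1.5-fold limit at 0.60 with cells thinned to 2000 UMIs, and Cgas, which fell inside it at 1.21 and 1.27 with mixed droplets counted and with classes set by own markers. The other 2 were Samhd1, which turned from 1.21 to 0.915 with cells thinned to 2000 UMIs, and Tbk1, which moved from 0.92 to 1.32 without the cells that carry markers of another class. The cause was not tested. Between old and young, no member was past a 2-fold limit in endothelial cells under the reported settings (0 of 6), and over the 7 classes 0 of 28 pairs were, where 5 were past 1.5-fold; with at least 50 UMIs asked for, 2 of 13 pairs were. Of the other pathway genes 5 of 53 were past 2-fold, where 11 were past 1.5-fold. No share of all genes was worked out at 2-fold or with at least 50 UMIs. These counts therefore cannot be read as few or many.

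Of 240 values of the 24 class contrasts, 216 kept their call, 21 lost it, 3 gained it and 0 changed direction with a call. Members called in bipolar cells fell from 3 to 1 under total-count scaling. In pericytes the number fell from 2 to 1 with DESeq2, with RLE size factors and with classes set by each cell's own markers. In smooth muscle it fell from 2 to 1 with DESeq2 and to 0 with classes set by own markers, which left few cells. Leaving out 1 library at a time gave 1 to 2 members called in pericytes and 1 to 2 in smooth muscle, both lower values being without the old library. Without the young library Tbk1 lost its pericyte call and Ddx41 gained one.

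No paired analysis between ages was possible because each age has 1 library, so that the age groups share a single replicate number. The class contrasts carried the library as a term. With 1 library per age none of the 49 pairs of member and class has a test between ages, and 21 were too sparse for a ratio. The 3 alternatives of leaving out the arterial cluster, counting a low-UMI unnamed cluster as endothelial and merging pericytes with smooth muscle were added after seeing the data.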
